A study of Mus musculus with 12 samples.

Results

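MHC class II presentation was followed through 10 genes chosen by name: the class II chains H2-Aa, H2-Ab1 and H2-Eb1, the peptide-exchange chains H2-DMa, H2-DMb1 and H2-Oa, the invariant chain Cd74, the transactivator Ciita, the protease Ctss and the co-stimulatory ligand Cd86. Each gene was represented by 1 probe, the one with the highest mean over the 12 arrays, out of 19053 genes with a probe, and all 10 were among the 12473 genes tested. RNA was measured on Illumina bead arrays in hepatocytes, macrophages and sinusoidal endothelial cells (SEC) of the liver, with 2 arrays in each of 6 groups. The DEN groups came from male C57Bl/6 mice that were injected intraperitoneally on postnatal day 25 with 25 mg/kg of diethylnitrosamine (DEN), which hepatocytes turn into a DNA-damaging agent, with tumours followed over 9 months, and RNA of 3 to 4 mice was pooled. The untreated groups came from male C57Bl/6 mice of matching age that received no DEN. Whether their RNA was pooled as well is not labelled. All samples carry "WT" in their titles, and no gene alteration is labelled. The sources used here do not give the isolation method of the cells. Whether both arrays of a group hold RNA of different pools is not labelled, and p-values therefore measure a spread between arrays that could be technical.

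Class II molecules show peptides from the endosome to CD4+ T cells. An alpha and a beta chain pair in the endoplasmic reticulum around the invariant chain, which fills the groove and steers the pair to the endosome, where cathepsin S trims it and H2-DM swaps the remaining fragment for a peptide. H2-O, best known from B cells, restrains H2-DM. Transcription of these genes depends on CIITA, a co-activator that does not bind DNA itself but docks on factors at the X and Y boxes of class II promoters. In the liver, Kupffer cells, dendritic cells and B cells are known to carry class II, SEC carry some, and hepatocytes normally carry very little.

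The promoters are shown because CIITA acts through them and because genes with similar boxes behaved differently in macrophages. RefSeq windows (build GRCm38.p6, 250 bases before to 50 after a start) were held for 6 of the 10 genes (H2-Aa, H2-Eb1, H2-DMa, H2-DMb1, H2-Oa and Ctss) and for 3 further class II chains (H2-Ob, H2-DMb2 and H2-Eb2). Capitals mark each match on either strand to the X box (AG, any 2 bases, AC, any 2 bases, ATG) or the Y box (ATTGG). The genes printed here lie on chromosome 17, H2-Aa on the minus strand (chr17:34287774-34288073) and the others on the plus strand (H2-Eb1 chr17:34305617-34305916, H2-DMb1 chr17:34152941-34153240, H2-Ob chr17:34238655-34238954 and H2-Oa chr17:34092129-34092428). Each line reads 5′ to 3′ along the gene's strand.
H2-Aa: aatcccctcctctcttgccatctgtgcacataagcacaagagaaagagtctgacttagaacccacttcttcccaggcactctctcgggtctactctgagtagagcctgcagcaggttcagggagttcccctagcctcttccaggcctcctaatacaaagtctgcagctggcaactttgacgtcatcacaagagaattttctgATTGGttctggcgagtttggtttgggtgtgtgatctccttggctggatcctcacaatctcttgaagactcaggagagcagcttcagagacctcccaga
H2-Eb1: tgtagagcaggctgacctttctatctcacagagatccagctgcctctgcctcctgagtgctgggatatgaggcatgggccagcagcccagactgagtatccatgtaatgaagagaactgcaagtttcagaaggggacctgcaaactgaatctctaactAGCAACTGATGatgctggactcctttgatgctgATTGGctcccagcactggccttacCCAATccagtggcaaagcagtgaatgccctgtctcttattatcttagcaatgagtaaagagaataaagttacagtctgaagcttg
H2-DMb1: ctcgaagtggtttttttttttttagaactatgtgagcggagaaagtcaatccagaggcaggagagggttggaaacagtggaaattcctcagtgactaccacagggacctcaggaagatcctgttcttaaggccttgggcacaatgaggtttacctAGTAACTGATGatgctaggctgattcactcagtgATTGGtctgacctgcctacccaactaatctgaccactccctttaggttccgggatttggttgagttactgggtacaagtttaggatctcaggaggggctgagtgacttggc
H2-Ob: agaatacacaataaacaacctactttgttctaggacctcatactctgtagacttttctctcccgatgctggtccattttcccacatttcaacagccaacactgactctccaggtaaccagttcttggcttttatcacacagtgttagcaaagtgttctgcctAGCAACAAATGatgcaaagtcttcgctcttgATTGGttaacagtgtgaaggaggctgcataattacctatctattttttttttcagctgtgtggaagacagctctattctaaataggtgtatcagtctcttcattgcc
H2-Oa: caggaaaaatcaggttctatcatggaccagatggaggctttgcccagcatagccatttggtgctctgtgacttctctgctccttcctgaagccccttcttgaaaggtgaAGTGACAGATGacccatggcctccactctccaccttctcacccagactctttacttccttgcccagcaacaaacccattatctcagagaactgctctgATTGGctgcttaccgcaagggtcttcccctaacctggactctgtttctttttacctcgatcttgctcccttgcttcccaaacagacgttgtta

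An X box followed on the same strand by a Y box that starts 25 to 45 bases later was found in 24 of 32851 promoters (0.0731%), and 4 class II genes were among them: H2-Eb1, H2-DMb1, H2-Ob and H2-Eb2. The Y box began 33 bases after the X box in H2-Eb1, 34 in H2-DMb1, 31 in H2-Ob and 33 in H2-Eb2. H2-Eb1 held a further Y box on the other strand, 35 bases before the start. In H2-Oa an X box began 141 bases before the start and a Y box 43 bases before it, too far apart for the pair as defined. The H2-Aa window held a Y box 48 bases before the start and no match to these X box letters. Alone, the Y box was in 37.4% of all promoters, the X box in 3.09% and the S box GGACC in 45.5%, counting both strands. Matches may overlap, as a Y box and an S box do by 1 base in H2-DMa. These matches describe the windows and were not tested as sites of binding.

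The arrays were checked against markers of the labelled cells, by adding up over a list the unlogged signal above the median of olfactory and vomeronasal receptor probes, which stand for background. The sum over 10 hepatocyte markers lay between 78109 and 79808 in DEN and between 114996 and 122894 in untreated hepatocytes. Elsewhere this sum was highest in DEN SEC, at 15378 to 15793, against 1659 to 1764 in untreated SEC. That over 10 SEC markers lay between 97048 and 98498 in DEN and between 97381 and 97706 in untreated SEC, and at most at 17776 elsewhere. The sum over 10 Kupffer cell markers lay between 16484 and 17686 in DEN macrophages and between 163916 and 165223 in untreated macrophages. It was 58311 to 59531 in DEN SEC and 71158 to 71968 in untreated SEC, so the SEC arrays held more of these transcripts than the DEN macrophage arrays did. Clec4f, a Kupffer cell lectin, stood at 8.96 and 9.07 in DEN macrophages and at 14.27 and 14.39 in untreated macrophages, against 13.16 and 13.13 in DEN SEC.

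**Figure D1:**
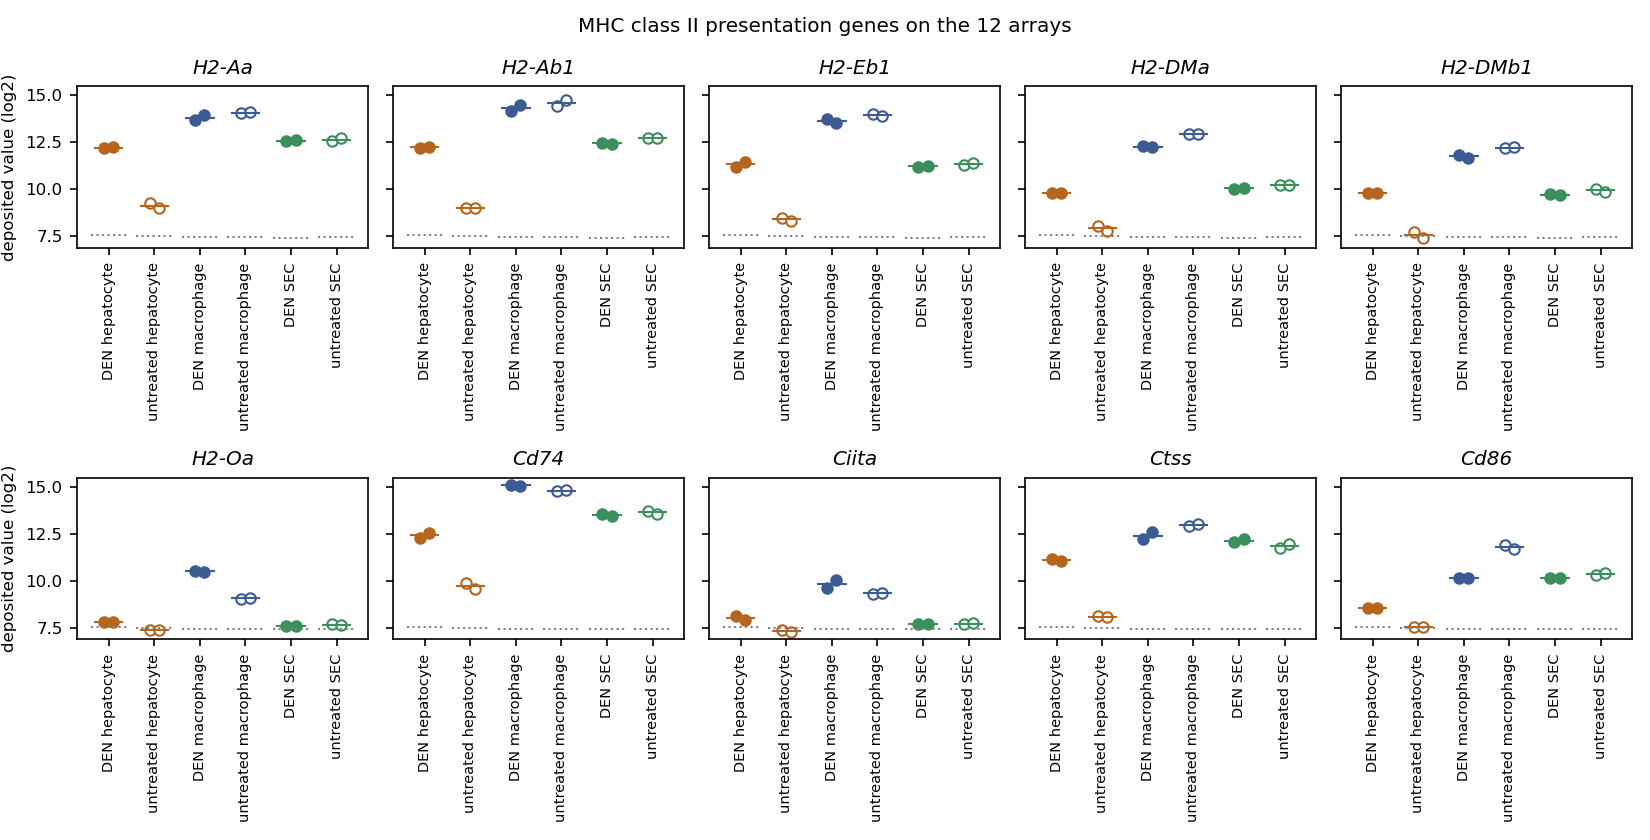
Deposited log2 value (y axis) of the 10 genes on the 12 arrays, with DEN groups as filled and untreated groups as open points, 1 point per array, a line at each group mean and a dotted line at the background of the group (95th percentile of receptor probes). Untreated hepatocytes lie lowest for all 10 genes and a macrophage group highest, and for the chosen probe of Cd86 the DEN macrophages lie at the level of SEC.

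In untreated liver the genes ran from macrophages through SEC to hepatocytes. The untreated SEC arrays also carried Kupffer cell marker signal (sum 71158 to 71968), whose part in their class II values was not tested. All 10 were higher in untreated macrophages than in untreated SEC (45.3% of all genes passed in this comparison, 23.1% as higher) and than in untreated hepatocytes (64.4%, 36.5% as higher), and all 10 were higher in untreated SEC than in untreated hepatocytes (67.2%, 38.9% as higher). H2-Ab1, the beta chain of I-A, stood at 14.46 and 14.75 in untreated macrophages, 12.73 and 12.74 in untreated SEC and 9.00 and 9.00 in untreated hepatocytes. The difference was 1.87 ± 0.11 (log2, SE, n = 2 each) between macrophages and SEC and 3.73 ± 0.11 between SEC and hepatocytes. Cd74 differed by 1.15 ± 0.11 between macrophages and SEC, and its macrophage values of 14.76 and 14.85 lay close to the top value of 15.19 that every array shares, which limits differences there. H2-Oa and Ciita were near background outside macrophages. H2-Oa stood at 9.01 and 9.11 in untreated macrophages, against 7.68 and 7.63 in untreated SEC and 7.38 and 7.38 in untreated hepatocytes, and Ciita at 9.31 and 9.36, against 7.70 and 7.75 and 7.39 and 7.28. Both untreated hepatocyte arrays were below background for these genes, so untreated macrophages were at least 2.94-fold higher for H2-Oa and at least 3.55-fold higher for Ciita. The difference of Ciita between untreated SEC and untreated hepatocytes (0.39) lost its call without untreated hepatocyte array 2 (0.33) or untreated SEC array 2 (0.36).

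The hepatocyte comparison asks how the parenchymal preparation of DEN-treated mice differs from that of untreated mice. All 10 genes rose in DEN hepatocytes, where 31.7% of the 12473 genes passed as higher and 67.6% passed in either direction (adjusted p between 2.55e-10 and 0.000254). The changes of the classical chains, the invariant chain and cathepsin S lay between 2.71 and 3.24. H2-Ab1 stood at 12.22 and 12.26 in DEN hepatocytes, against 9.00 and 9.00 in untreated hepatocytes, a rise of 3.24 ± 0.11 or 9.42-fold. H2-Aa, the alpha chain of I-A, stood at 12.18 and 12.23, against 9.25 and 8.98 in untreated hepatocytes (3.09 ± 0.10). H2-Eb1, the beta chain of I-E, stood at 11.19 and 11.46, against 8.47 and 8.32 (2.93 ± 0.09). Both DEN arrays lay well above both untreated arrays for each of these chains.

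Cd74 stood at 12.30 and 12.54 in DEN hepatocytes, against 9.87 and 9.55 in untreated hepatocytes, a rise of 2.71 ± 0.11. Ctss, which cuts the invariant chain, stood at 11.15 and 11.06, against 8.11 and 8.05 (3.03 ± 0.12). The exchange chain H2-DMa stood at 9.82 and 9.79, against 8.04 and 7.80 (1.88 ± 0.07). Its partner H2-DMb1 stood at 9.81 and 9.83, against 7.71 and 7.40 with the lower value below background (2.26 ± 0.09). H2-DMb1 has a close paralog, H2-DMb2, and a probe may not tell them apart. Cd86, which binds CD28 on T cells, stood at 8.55 and 8.55, against 7.55 and 7.54 (1.01 ± 0.07). Its untreated values lay just above the background of these arrays (7.51 and 7.50), which limits how well the size of this rise is known.

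Ciita and H2-Oa also rose in hepatocytes, with both untreated arrays below background, so that the size of their rise is a lower bound. Ciita stood at 8.12 and 7.91 in DEN hepatocytes, against 7.39 and 7.28 in untreated hepatocytes, at least 1.42-fold higher (adjusted p = 0.000254). H2-Oa stood at 7.80 and 7.80, against 7.38 and 7.38, at least 1.23-fold higher (adjusted p = 1.79e-05). For all 10 genes the arrays of the groups did not overlap, as for 78.6% of all genes. The median change was 2.49 over the 10 genes and -0.02 over all genes tested. Other probes gave smaller rises for some genes: 1.49 and 2.46 for H2-Ab1, 1.55 for probe 3 of Cd74, 0.24 for probe 2 of H2-Oa, 0.30 for probe 2 of Ciita and 0.14 for probe 3 of Cd86, which did not pass (adjusted p = 0.109).

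**Figure D2:**
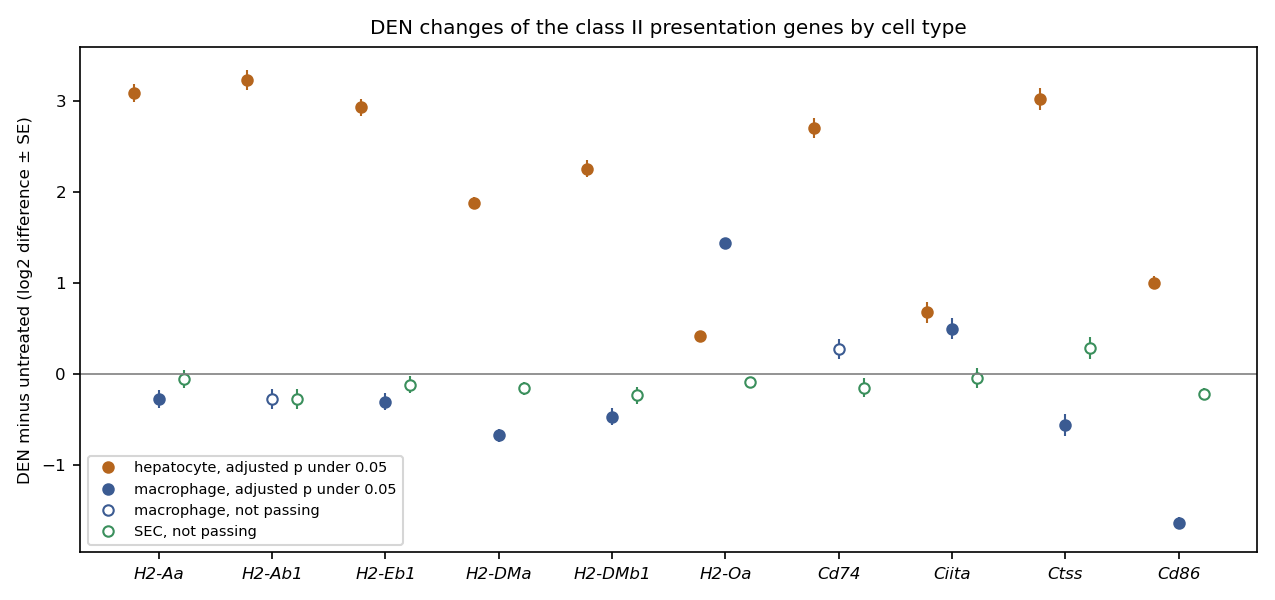
DEN minus untreated difference (y axis, log2, with SE, n = 2 arrays per group) of each gene in hepatocytes, macrophages and SEC, with filled points where the adjusted p was under 0.05. Hepatocyte changes run from 0.42 to 3.24 (those of H2-Oa and Ciita against arrays below background), macrophage changes from -1.64 to 1.45 and SEC changes from -0.27 to 0.29.

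The macrophage comparison asks the same of liver macrophages, and there the genes parted. H2-Oa and Ciita rose and 6 genes fell, where 18.6% of all genes passed as higher and 24.3% as lower. Cd86 fell most: it stood at 10.14 and 10.17 in DEN macrophages, against 11.90 and 11.69 in untreated macrophages, a change of -1.64 ± 0.07 (adjusted p = 7.57e-09), and the DEN arrays of the chosen probe lay at the level of SEC. H2-Oa rose by 1.45 ± 0.05 or 2.73-fold (10.55 and 10.47 in DEN, 9.01 and 9.11 in untreated macrophages, adjusted p = 1.74e-09). Ciita rose by 0.50 ± 0.11 (9.63 and 10.04 in DEN, 9.31 and 9.36 in untreated macrophages, adjusted p = 0.0038), and by 0.30 without the second DEN macrophage array. The arrays did not overlap for either gene.

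H2-DM and cathepsin S fell. H2-DMa stood at 12.30 and 12.23 in DEN macrophages, against 12.92 and 12.95 in untreated macrophages (-0.67 ± 0.07, adjusted p = 1.33e-05). H2-DMb1 stood at 11.82 and 11.68, against 12.18 and 12.25 (-0.47 ± 0.09, adjusted p = 0.00176). Ctss stood at 12.22 and 12.60, against 12.90 and 13.03 (-0.56 ± 0.12, adjusted p = 0.00256), and its change was -0.36 without DEN macrophage array 1. The change of H2-DMb1 did not pass with background subtracted (-0.48, adjusted p = 0.349).

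The chosen probes of the classical chains were close to the threshold in macrophages, and that of H2-Ab1 lay near the shared top value of 15.19. H2-Aa stood at 13.70 and 13.94 in DEN macrophages, against 14.08 and 14.10 in untreated macrophages (-0.27 ± 0.10, adjusted p = 0.0439), and H2-Eb1 at 13.72 and 13.55, against 14.00 and 13.88 (-0.30 ± 0.09, adjusted p = 0.0231). H2-Ab1 did not pass, at 14.16 and 14.51 in DEN macrophages and 14.46 and 14.75 in untreated macrophages, which overlap (-0.27 ± 0.11, adjusted p = 0.0726). H2-Aa did not pass without untreated macrophage array 1 (-0.28) or 2 (-0.26), without DEN macrophage array 1 (-0.15) or without either DEN SEC array (-0.27 each), nor with background subtracted (-0.27, adjusted p = 0.167). H2-Eb1 did not pass without untreated macrophage array 1 (-0.24) or DEN macrophage array 2 (-0.22), nor with background subtracted (-0.30, adjusted p = 0.12), and H2-Ab1 passed without untreated macrophage array 1 (-0.41) or DEN macrophage array 2 (-0.44). H2-Ab1 also passed as lower with cyclic loess (-0.33, adjusted p = 0.0332), with the mean of its probes (-0.51, adjusted p = 0.000255) and with array weights (-0.27, adjusted p = 0.0481). Its probes 2 and 3 are dimmer and fell by more (-0.61 and -0.65). Over the 10 genes the groups did not overlap for 9, as for 74.7% of all genes, and the median change was -0.28, against -0.02 over all genes.

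Cd74 had no settled direction in macrophages. The chosen probe stood at 15.11 and 15.05 in DEN macrophages and at 14.76 and 14.85 in untreated macrophages (0.28 ± 0.11, adjusted p = 0.0626), all near the shared top value. In a fit of all 24185 probes above background, which was added after the values were seen, its probe 2 was at -0.01 ± 0.06 and its probe 3 at -0.83 ± 0.09 (adjusted p = 2.17e-05). Probe 3, at 12.34 and 12.43 in DEN and 13.18 and 13.25 in untreated macrophages, was farther from the top value. Probes 2 and 3 of H2-Ab1 fell (-0.61 ± 0.11, adjusted p = 0.000872, and -0.65 ± 0.07, adjusted p = 2.88e-05). No array left out turned the sign of the chosen probe, which passed without any 1 hepatocyte array (0.28 each). The other genes with several probes had them on 1 side of 0: -1.64 to -1.78 for the 3 probes of Cd86, -0.67 and -0.63 for H2-DMa, 1.45 and 1.25 for H2-Oa and 0.50 and 0.65 for Ciita.

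**Figure D3:**
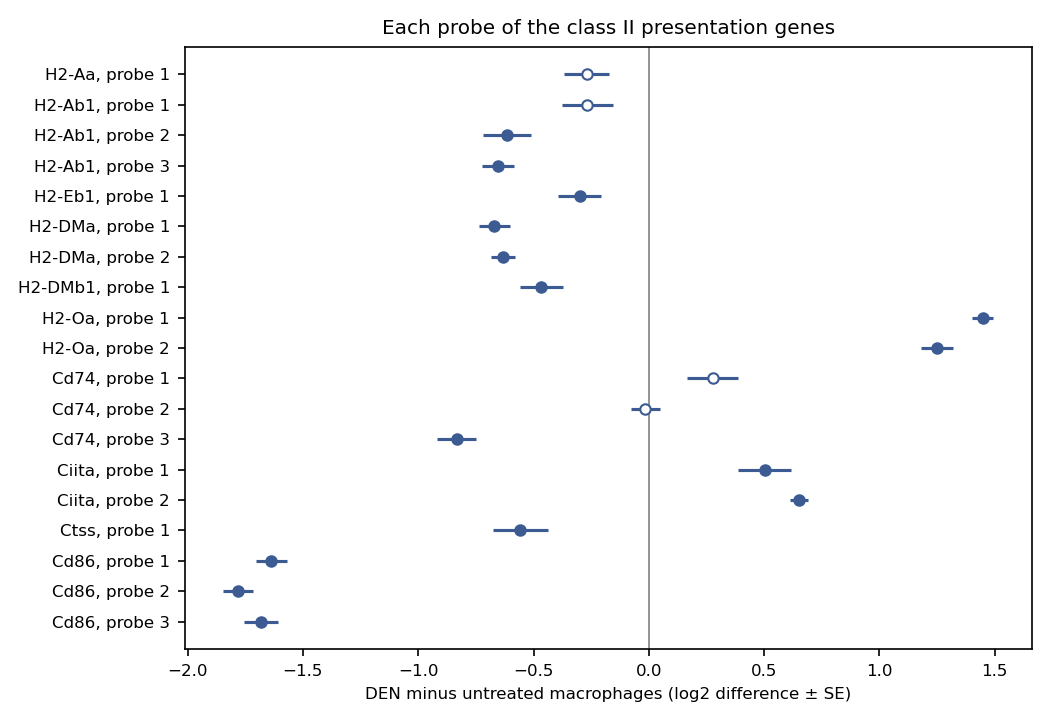
DEN minus untreated difference in macrophages (x axis, log2, with SE, n = 2 arrays per group) of each of the 19 probes of the 10 genes, numbered by mean level, with filled points where the adjusted p over 24185 probes was under 0.05. The 3 probes of Cd74 spread from -0.83 to 0.28, while all probes of H2-Oa and Ciita lie above 0 and all of Cd86 below -1.6.

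In SEC none of the 10 genes passed with limma, where 3.55% of all genes did, and 4 had an unadjusted p under 0.05. H2-Ab1 stood at 12.49 and 12.44 in DEN SEC, against 12.73 and 12.74 in untreated SEC (-0.27, 95% interval -0.51 to -0.03, adjusted p = 0.323). Cd86 stood at 10.17 and 10.15, against 10.32 and 10.44 (-0.22, interval -0.37 to -0.06, adjusted p = 0.156). Ctss was the gene with a higher mean, at 12.04 and 12.22 in DEN SEC and 11.74 and 11.95 in untreated SEC (0.29, interval 0.03 to 0.55, adjusted p = 0.316). H2-Aa differed least among the classical chains (-0.05, interval -0.27 to 0.16). H2-Oa and Ciita were slightly above background in both groups, at 7.57 and 7.57 for H2-Oa in DEN SEC and 7.68 and 7.63 in untreated SEC, and at 7.69 and 7.68 for Ciita, against 7.70 and 7.75. The groups did not overlap for 9 of the 10 genes, as for 52.3% of all genes. With array weights, which count noisier arrays less, H2-DMa, H2-DMb1 and Cd86 passed as lower, where 10.2% of all genes passed.

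The changes differed between the cell types. The change was larger in hepatocytes than in SEC for all 10 genes (59.6% of all genes passed, 29.5% in this direction), by 0.51 ± 0.07 for H2-Oa to 3.50 ± 0.15 for H2-Ab1. It was larger in hepatocytes than in macrophages for 8 genes (63% of all genes passed, 30.7% in this direction and 32.2% in the other), smaller for H2-Oa (-1.03 ± 0.07) and did not pass for Ciita (0.18 ± 0.16, adjusted p = 0.362). The untreated hepatocyte arrays were below background for H2-Oa and Ciita, so these differences have no settled sign or size. With background subtracted that of H2-Oa turned to 0.30 (adjusted p = 0.113), and that of Ciita passed at 2.02. Without DEN macrophage array 2 the Ciita difference also passed (0.38). The change in macrophages exceeded that in SEC for H2-Oa (1.54 ± 0.07) and Ciita (0.54 ± 0.16), and was below it for Cd86 (-1.42 ± 0.10), Ctss (-0.85 ± 0.17) and H2-DMa (-0.52 ± 0.10). The other 5 genes did not pass in this comparison (33% of all genes passed, 15.3% as higher and 17.6% as lower). The call of Ciita was lost without any 1 of 7 of the macrophage and SEC arrays (0.34 to 0.57), DEN macrophage array 1 being the exception, and those of Ciita (0.74) and H2-DMa (-0.51) were lost with background subtracted. Cd74 (0.42) passed without any 1 hepatocyte array, while its probe 3 passed in the opposite direction (-0.74, adjusted p = 0.000939). H2-Ab1, at 0.00 with the chosen probe, passed as lower with probe 2 (-0.65, adjusted p = 0.00761), probe 3 (-0.54, adjusted p = 0.00184) and the mean of its probes (-0.40, adjusted p = 0.0142).

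Under DEN, hepatocytes lay closer to macrophages and SEC for the classical chains, while the distance between macrophages and SEC did not pass as changed for the chosen probes. DEN macrophages still exceeded DEN hepatocytes for all 10 genes (67.3% of all genes passed, 39.5% as higher), by 1.61 ± 0.10 for H2-Aa, against 4.97 ± 0.10 between the untreated cells. For H2-Oa macrophages were 6.54-fold higher than hepatocytes under DEN (2.71 ± 0.05 in log2), and at least 2.94-fold higher between the untreated cells. The untreated hepatocyte arrays were below background for H2-Oa, so the change of this distance has no settled size. Between DEN SEC and DEN hepatocytes 7 genes passed, 5 higher and 2 lower in SEC (67% of all genes passed, 40.2% as higher and 26.8% as lower). H2-Eb1 (-0.11 ± 0.09), H2-DMb1 (-0.10 ± 0.09) and H2-Ab1 (0.23 ± 0.11) did not pass, with H2-Eb1 at 11.21 and 11.23 in DEN SEC and 11.19 and 11.46 in DEN hepatocytes. Ciita (-0.33 ± 0.11) and H2-Oa (-0.23 ± 0.05) were lower in DEN SEC than in DEN hepatocytes, and Ciita lost its call without DEN hepatocyte array 1 (-0.23) or either DEN SEC array (-0.34 and -0.33). H2-Eb1 passed without DEN hepatocyte array 1 (-0.24) and H2-Ab1 without either DEN macrophage array (0.23). The probes of H2-Ab1 disagreed here: probe 2 (0.81, adjusted p = 6.41e-05) and the mean of the probes (0.28, adjusted p = 0.00637) passed as higher in DEN SEC, and probe 3 as lower (-0.19, adjusted p = 0.0359). Between DEN macrophages and DEN SEC 8 genes passed, all as higher in macrophages (53.8% of all genes passed, 25.1% as higher). Cd86 (-0.01 ± 0.07) and Ctss (0.28 ± 0.12, adjusted p = 0.0687) did not, although probe 3 of Cd86 was higher in DEN macrophages (0.35, adjusted p = 0.00191) and Ctss passed without DEN macrophage array 1 (0.47). The order of the 6 groups was thus headed by DEN macrophages for H2-Oa, Ciita and the chosen probe of Cd74, and by untreated macrophages for the other 7 genes. Untreated hepatocytes came last for all 10.

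The rise of H2-Oa in macrophages was shared by its partner chain and not by its neighbours. Along chromosome 17 the class II genes follow the order H2-Oa, H2-DMa, H2-DMb2, H2-DMb1, H2-Ob, H2-Ab1, H2-Aa, H2-Eb1, H2-Eb2 and H2-Ea. H2-Ob, the beta chain of H2-O, stood at 10.76 and 10.74 in DEN macrophages, against 9.11 and 8.97 in untreated macrophages, a rise of 1.71 ± 0.06 (adjusted p = 2.27e-09). H2-DMb2, which lies between the H2-O genes, fell by 0.31 ± 0.09 (11.58 and 11.49 in DEN, 11.81 and 11.89 in untreated macrophages, adjusted p = 0.0184). H2-Ob and H2-DMb2 also rose in DEN hepatocytes (H2-Ob at least 1.39-fold, H2-DMb2 by 1.64 ± 0.09), and neither passed in SEC. H2-Eb2, whose window holds the X and Y pair, passed in none of the 3 cell types. It was below background on all hepatocyte arrays and on 1 array of each SEC group. In macrophages it stood at 8.63 and 8.60 in DEN and at 8.59 and 8.72 in untreated cells. H2-Ea, the alpha chain of I-E and a pseudogene in the C57BL/6 reference, was below background on all 12 arrays, between 7.27 and 7.43.

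**Figure D4:**
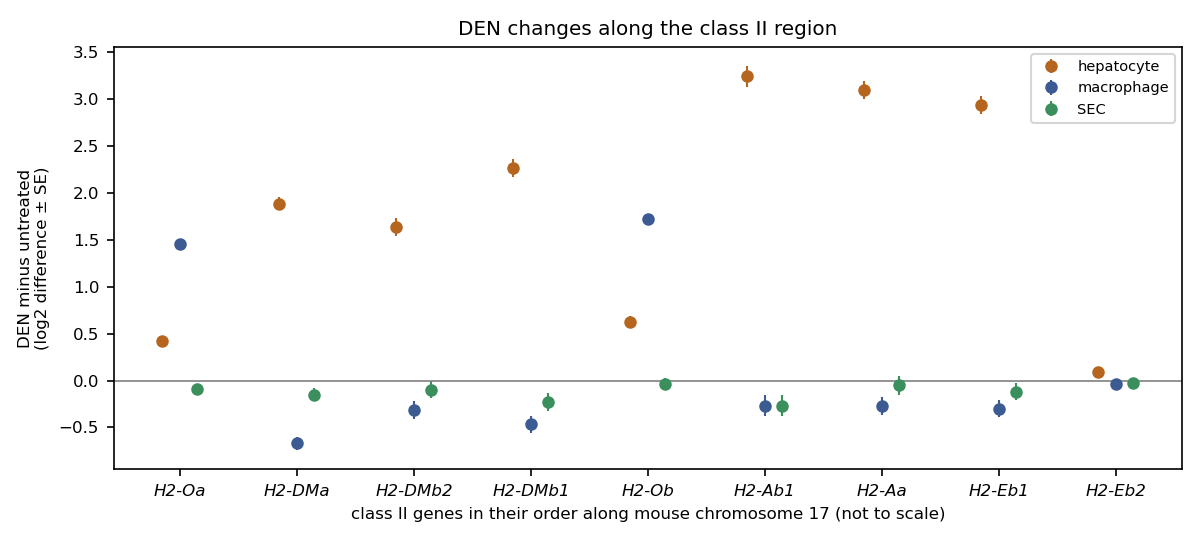
DEN minus untreated difference (y axis, log2, with SE, n = 2 arrays per group) of the 9 tested class II genes in their order along chromosome 17 (x axis, not to scale). In macrophages H2-Oa (1.45) and H2-Ob (1.71) stand above the genes around them, which lie between -0.67 and -0.04. The hepatocyte changes of H2-Oa and H2-Ob were measured against arrays below background, and H2-Eb2 was below background on all hepatocyte arrays.

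Other steps of the pathway were read from lists, whose counts stand against 67.6% of all genes passing in hepatocytes (31.7% as higher), 42.9% in macrophages (18.6% as higher, 24.3% as lower) and 3.55% in SEC. Of 8 endolysosomal processing genes, 6 rose and 1 fell in DEN hepatocytes, while 6 fell and 0 rose in DEN macrophages. The disulphide reductase Ifi30 rose by 1.60 ± 0.10 in hepatocytes and changed by -0.73 ± 0.10 in macrophages, and the asparaginyl protease Lgmn by 1.39 ± 0.08 and -1.88 ± 0.08. Cathepsin C, Ctsc (-1.88 ± 0.06), and cathepsin H, Ctsh (-1.20 ± 0.06), also fell in macrophages. In SEC, cathepsin D, Ctsd, rose (0.37 ± 0.09, adjusted p = 0.045) and the other 7 did not pass. The list medians were 0.93 in hepatocytes, -0.57 in macrophages and -0.10 in SEC, each against -0.02 over all genes.

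Of 8 co-stimulatory and checkpoint genes, 5 rose in DEN hepatocytes (31.7% of all genes) and 6 rose with 1 lower in DEN macrophages (18.6% and 24.3% of all genes), while 0 of 8 passed in SEC (3.55%). In macrophages the ligand Cd80, which shares its receptors with Cd86, rose by 0.35 ± 0.07, the maturation marker Cd83 by 0.75 ± 0.12 and the PD-1 ligand Cd274 by 0.56 ± 0.09, beside the fall of Cd86. Marchf1, a ubiquitin ligase that removes class II and CD86 from the cell surface, fell by 0.50 ± 0.07. In hepatocytes Cd40 was at least 2.48-fold and Cd83 at least 1.81-fold higher, and Cd274 rose by 0.79 ± 0.09. The list medians were 0.57 in hepatocytes, 0.28 in macrophages and -0.06 in SEC.

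Of 6 measured partners of CIITA on the promoter, 4 rose in DEN macrophages (18.6% of all genes): Nfyb (0.35 ± 0.06), Rfxap (0.24 ± 0.06), Creb1 (0.21 ± 0.06) and Nfyc (0.17 ± 0.05). In DEN hepatocytes Nfyc rose (0.89 ± 0.05), Nfyb fell (-0.66 ± 0.06) and 4 did not pass, where 67.6% of all genes passed. Of these 4, Nfya and Creb1 were below background on all hepatocyte arrays and Rfxank on both DEN arrays, which limits this count. None of the 6 passed in SEC (3.55% of all genes), and Rfx5, which binds the X box, was below background. Interferon gamma is the classical inducer of CIITA. Of 9 genes of its pathway 6 rose in DEN hepatocytes (31.7% of all genes), with the receptor chain Ifngr2 at 5.44 ± 0.12, the target Gbp2 at 2.20 ± 0.08 and the transcription factor Irf1 at 1.37 ± 0.09. In DEN macrophages 2 rose and 3 fell, with Ifngr2 at 1.39 ± 0.12, Jak2 at 0.91 ± 0.10, Ifngr1 at -0.60 ± 0.11 and Irf1 at -0.59 ± 0.09. In SEC 0 of 9 passed (3.55% of all genes).

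Class I presentation was measured for comparison. Of 13 genes 6 rose and 3 fell in DEN hepatocytes, a share near the 67.6% of all genes that passed, with a list median of 0.01. The immunoproteasome subunits Psmb10 (1.16 ± 0.08) and Psmb9 (0.79 ± 0.05) rose, and the light chain B2m (-0.60 ± 0.11) and the chaperone Calr (-1.73 ± 0.14) fell. In DEN macrophages 1 rose and 6 fell (median -0.09), where 42.9% of all genes passed. Nlrc5, the class I counterpart of Ciita, rose by 0.70 ± 0.07, while the heavy chain H2-D1 (-0.97 ± 0.09) and the chaperone Pdia3 (-1.24 ± 0.09) fell. In DEN SEC, where 3.55% of all genes passed, 2 fell, Pdia3 (-0.87 ± 0.09) and the peptide transporter chain Tap2 (-0.36 ± 0.08).

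Markers of cells that carry class II moved on the same arrays. In DEN hepatocytes 7 of 10 Kupffer cell markers, 7 of 8 monocyte markers, 6 of 6 B cell markers and 4 of 10 dendritic cell markers rose, and 1 Kupffer cell marker fell, where 31.7% of all genes rose. Of 10 SEC markers 8 rose (median 0.72), with a summed signal of 6423 to 6677 in DEN and 3223 to 3265 in untreated hepatocytes. The summed B cell signal was 2071 to 2102 in DEN and 5.28 to 14.1 in untreated hepatocytes, where all 6 markers were below background. The summed dendritic cell signal was 2519 to 2546 in DEN and 48.8 to 79.5 in untreated hepatocytes, but 74.6% of the DEN sum came from Siglech and 6 of 10 markers did not pass. Ly6d made up 50.9% of the B cell sum in DEN hepatocytes. The summed Kupffer cell signal was 15068 to 16113 in DEN and 2186 to 2469 in untreated hepatocytes. The macrophage receptor Adgre1 rose by 3.59 ± 0.06 there. Siglech, a marker of plasmacytoid dendritic cells, rose by 3.51 ± 0.10. Neutrophil markers rose in 8 of 9 and T and NK cell markers in 6 of 8, while 8 of 10 hepatocyte markers fell. Of the 12473 genes tested, 4486 passed as lower in DEN hepatocytes. Of the 10 dendritic cell markers, 4 were above background on both DEN hepatocyte arrays and 4 (Itgax, Zbtb46, Xcr1 and Cd209a) were below it on both. The part of these cells in the rise of the class II genes was not tested, and in such samples more cells of a type and more RNA per cell cannot be told apart.

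In DEN macrophages, where 18.6% of all genes passed as higher and 24.3% as lower, 10 of 10 Kupffer cell markers fell (median -3.61). This was beside the falls of Cd86, Ctss and H2-DM, and 6 of 8 monocyte markers rose. Of 10 SEC markers 6 fell and 1 rose there (median -0.95), with a summed signal of 6586 to 6666 in DEN and 16979 to 17776 in untreated macrophages. B cell markers rose in 6 of 6 beside H2-Oa, H2-Ob and Ciita, with Blk at 1.63, Fcmr at 1.57 and Cd79b, a chain of the B cell receptor, at 12.01 and 12.07 in DEN and 10.73 and 10.79 in untreated macrophages. The summed B cell signal was 10531 to 10718 in DEN macrophages and 3608 to 3678 in untreated macrophages, and no tested B cell marker was below background on both arrays of either group. Of 10 dendritic cell markers 6 rose and 1 fell there, with Itgax at 0.93, Ccr7 at 0.88 and Batf3 at -1.02, and the summed signal was 3367 to 3884 in DEN and 3116 to 3263 in untreated macrophages. T and NK cell markers rose in 6 of 8 and neutrophil markers in 9 of 9. In DEN SEC, where 3.55% of all genes passed, 7 of 9 neutrophil markers and 1 of 6 B cell markers (Ly6d, 0.38) rose. There 0 of 10 dendritic cell markers passed, and 2 of 10 Kupffer cell markers fell. Of 10 hepatocyte markers 3 rose in DEN SEC, with a summed signal of 15378 to 15793 in DEN and 1659 to 1764 in untreated SEC. The part of these cells in the macrophage and SEC changes was not tested.

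**Figure D5:**
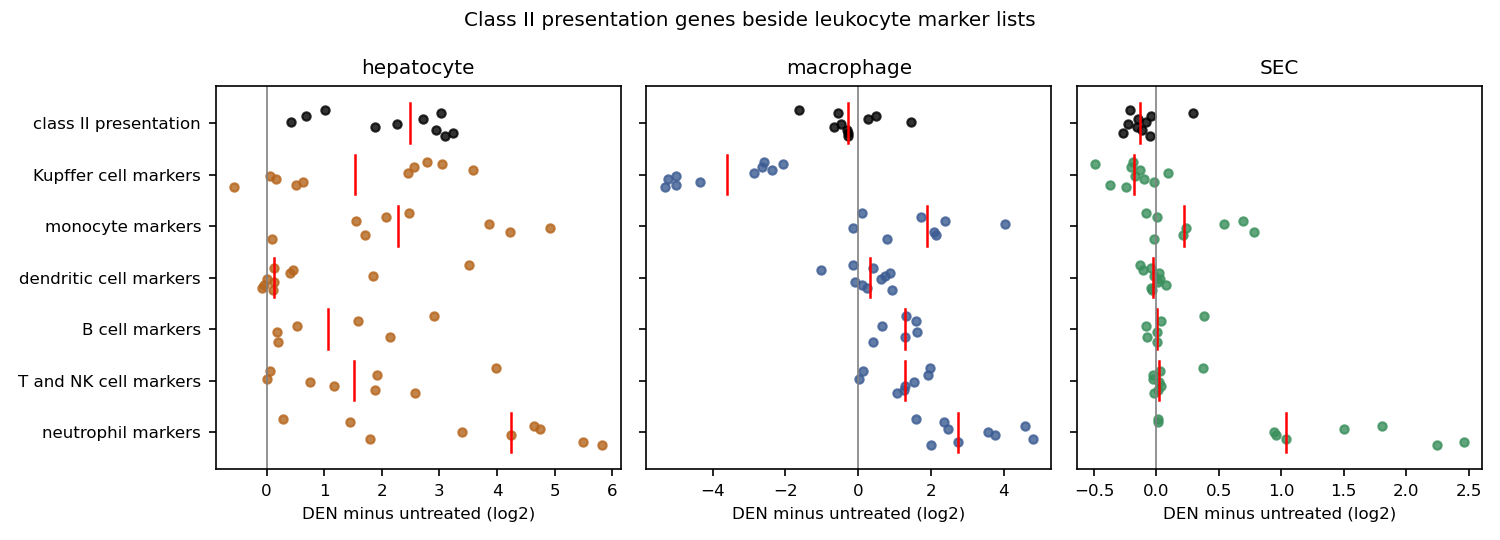
DEN minus untreated difference (x axis, log2) of the 10 class II presentation genes (black) and of the tested members of 6 leukocyte marker lists (coloured) in hepatocytes, macrophages and SEC, 1 point per gene with a red line at the list median. In macrophages the Kupffer cell markers lie between -5.32 and -2.07 and the B cell markers between 0.40 and 1.63, with the class II genes between -1.64 and 1.45.

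The genes whose pattern was most like that of H2-Aa, H2-Ab1, H2-Eb1 and Cd74 were named by correlation over the 12 arrays. The highest Pearson correlations with their mean standardised profile were those of Cd52 (0.998), Prkcb (0.996), Cd53, Tyrobp and Arhgap25 (0.995 each), Nckap1l (0.994), Gmfg (0.992), Zyx and Arhgap30 (0.989 each) and Rasa3 (0.989). CD52 and CD53 are surface proteins of leukocytes, and TYROBP is a signalling adaptor of myeloid and NK cells. Ciita was followed most closely by Cd83 (0.993), Ptpn22 (0.993), Zcchc18 (0.991), the B cell receptor regulator Cd22 (0.99) and the T cell receptor chain Cd3g (0.989). Among the 10 genes, H2-Oa correlated with Ciita at 0.963 and with Cd86 at 0.476. These values describe 12 arrays that fall into 3 cell types.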

How the data were processed

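Each of 6 groups has 2 Illumina mouse bead arrays. The authors deposited log2 values (the scale was read from the values themselves). The submitters' processing notes name lumi, without its version or transform. If that transform was variance-stabilising, differences of dim probes are compressed. The 12 arrays share 1 distribution (median 7.41, maximum 15.19), which shows scaling between arrays by the authors, with no centring by gene. The values do not show whether background was subtracted before the transform. A further table with 24 columns matches no sample label and was not used.

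Probes were named from the platform annotation, updated through Entrez ID or accession to GRCm38.p6 symbols. Among the 45281 probes, 34885 carried a single gene symbol, 18 carried several and 10378 carried none. A probe was above background if it exceeded the 95th percentile of 1504 olfactory and vomeronasal receptor probes of its array, and was kept if both arrays of a group did so (24185 probes). The probe with the highest mean stood for each of 12473 genes. Arrays had 14314 to 21552 probes above background, and their number limits the precision. Group means were fitted with limma 3.58.1 under R 4.3.3 (lmFit and eBayes, 6 residual degrees of freedom, two-sided), with Benjamini-Hochberg adjustment over all genes at 0.05. The SE of a gene is shared by all groups, while the SD of the difference between replicates was 0.18 in DEN and 0.14 in untreated hepatocytes and 0.08 to 0.10 elsewhere. The fit was tested on simulated data with independent noise, of equal spread in all groups for a gene. This cannot show whether the spread between the real arrays is technical. A fold is written as "at least" where neither array of the lower group exceeded background, and then uses the background value.

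The members and lists were chosen with earlier results of these data known. All 10 members are named, and up to 4 passing genes with the largest change per list and comparison, beside the 10 and 5 genes with the most similar patterns. Genes of the marker lists and H2-Ea named beyond this were chosen after their values were seen. Alternatives were cyclic loess, quantile normalization, background subtraction, other filters, the mean of probes, each cell type alone, a trended robust fit, array weights, a replicate block and leaving out each array. Figures used Python 3.11.15 and matplotlib 3.10.9.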

Additional observations from a re-analysis of the deposited data

Results flagged for a closer look

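The DEN change of a gene differed between cell types, by limma's test of the difference, in 24 cases. Of all 12473 genes, 63% passed this test between hepatocytes and macrophages, 59.6% between hepatocytes and SEC and 33% between macrophages and SEC. Between hepatocytes and macrophages (hepatocyte change minus macrophage change, log2) the differences were 3.36 for H2-Aa, 3.50 for H2-Ab1, 3.23 for H2-Eb1, 2.55 for H2-DMa, 2.73 for H2-DMb1, 2.43 for Cd74, 3.58 for Ctss and 2.65 for Cd86, and -1.03 for H2-Oa, whose sign is not settled because the untreated hepatocyte arrays were below background. Between hepatocytes and SEC they were 3.14 for H2-Aa, 3.50 for H2-Ab1, 3.05 for H2-Eb1, 2.04 for H2-DMa, 2.49 for H2-DMb1, 0.51 for H2-Oa, 2.86 for Cd74, 0.72 for Ciita, 2.74 for Ctss and 1.22 for Cd86. Between macrophages and SEC they were -0.52 for H2-DMa, 1.54 for H2-Oa, 0.54 for Ciita, -0.85 for Ctss and -1.42 for Cd86. Comparisons that share a cell type share its arrays. With 2 arrays a group, no single array could be called an outlier.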

How the results depend on the processing

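The counts of genes that passed kept within 1.5 times the reported count in all 12 comparisons under all alternatives but these. With background subtracted, 5 genes passed in macrophages in place of 8 (2 higher and 3 lower), and 3 in place of 5 in the difference between the macrophage and SEC changes. In SEC, where 0 passed, 1 passed with each cell type fitted alone (H2-Ab1) and 3 with array weights. Leaving out each array in turn gave 7 to 9 genes in macrophages, 10 in hepatocytes and 0 in SEC.

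Of 2658 values of single genes compared, 30 lost and 38 gained the threshold, 7 turned sign with a pass on at least 1 side, and 19 turned sign without one. Those that turned were Cd74 in macrophages with the mean of its probes (-0.19, adjusted p = 0.0413) and with its probe 3 (-0.83), which also turned the macrophage minus SEC difference (-0.74), and H2-Oa in the hepatocyte minus macrophage difference with background subtracted (0.30). The others were Ciita in that difference with its probe 2 (-0.35), Cd86 in DEN macrophages minus DEN SEC with its probe 3 (0.35) and H2-Ab1 in DEN SEC minus DEN hepatocytes with its probe 3 (-0.19). The cause was not tested. The probe alternatives were chosen after seeing the data. The macrophage minus SEC difference of Ciita lost its call without any 1 of 7 arrays (0.34 without DEN macrophage array 2).

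Whether the replicate numbers pair the samples is not labelled. Deviations of equal-numbered arrays correlated between -0.06 and 0.08 over 15 pairs of groups. These values cannot settle it, since arrays that differ only technically would not correlate even if the samples were paired. With the number as a replicate block 5288 genes passed in macrophages, against 5353 without it, and H2-Aa there did not pass (-0.27, adjusted p = 0.0528), while Ctss passed in DEN macrophages minus DEN SEC (0.28, adjusted p = 0.0397).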
